A study of Mus musculus with 12 samples.

Results

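A set of 10 genes of the extracellular matrix was followed across 12 arrays of alveolar type II cells in culture, the epithelial cells of the lung that make surfactant. They are the collagen genes Col1a1, Col1a2, Col3a1, Col4a1, Col4a2, Col6a1 and Col23a1, the fibronectin gene Fn1, and the genes Sparc and Fbln2. The 10 genes were chosen by name, with earlier results of these data known, so counts of called genes among them do not test the set. Every probe set that the platform annotation assigns to one of them and to no other gene was taken. This gave 21 probe sets of 10 genes among 34945 probe sets of 18193 genes. Col4a2 and Col6a1 had 1 probe set each, and the other 8 genes had several.

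The arrays fall into 4 genotype groups of 3 samples each. The cells lacked Gnaq and Gna11 (Gnaq/Ga11 ko in the titles), Gna12 and Gna13 (Gna12/Ga13 ko in the titles), Gna12 alone, or Gna11 alone, and the groups are called Gnaq/Gna11, Gna12/Gna13, Gna12 and Gna11 cells below. These genes encode alpha subunits of heterotrimeric G proteins, and all 4 groups lack at least 1 of them, so that no wild-type cells entered a comparison. All cells came from mouse lung and spent 7 days on collagen-coated plates in an epithelial growth medium that held keratinocyte growth factor and no hydrocortisone, without further treatment. How the genes were removed, in which cells, the age of the mice and whether replicates are separate animals is not given in the labels. The p-values therefore cover only the spread among these samples, part of which may be technical.

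Fibrillar collagens are trimers that assemble into the tensile fibres of connective tissue, and fibroblasts are their main source in the lung. Type IV collagen forms the network of basement membranes, on which the alveolar epithelium rests. Fibronectin, fibulins and Sparc are secreted glycoproteins that bind collagens, other matrix proteins or cell surface receptors. G proteins of the Gq/11 family signal through phospholipase C and calcium, and those of the G12/13 family through RhoA.

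Of the 10 genes, 8 had a window around the annotated start in the RefSeq table of assembly GRCm38.p6, which spans 250 bases before the start and 50 from it on. Col1a1 and Fn1 are named only. The windows of Col1a2, Col3a1, Fbln2 and Col23a1 are printed because these 4 genes are ones whose Gnaq/Gna11 arrays lay outside the range of all other arrays, and those of Col4a1 and Col4a2 because these neighbours are transcribed away from each other and their windows overlap. Each runs 5′ to 3′ on the strand of its gene. Capitals mark the CCAAT box, the Sp1 motif GGGCGG, the promoter element TATAAA and the Smad motif CAGACA, searched on both strands, so that some capitals spell the reverse complement of a motif.
Col1a2 (chr6:4505368-4505667, plus strand): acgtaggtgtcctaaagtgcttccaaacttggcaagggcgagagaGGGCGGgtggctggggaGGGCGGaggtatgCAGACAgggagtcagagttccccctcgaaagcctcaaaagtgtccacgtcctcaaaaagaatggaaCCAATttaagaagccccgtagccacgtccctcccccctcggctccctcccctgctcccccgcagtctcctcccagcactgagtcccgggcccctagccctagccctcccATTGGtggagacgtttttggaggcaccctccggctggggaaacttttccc
Col3a1 (chr1:45311288-45311587, plus strand): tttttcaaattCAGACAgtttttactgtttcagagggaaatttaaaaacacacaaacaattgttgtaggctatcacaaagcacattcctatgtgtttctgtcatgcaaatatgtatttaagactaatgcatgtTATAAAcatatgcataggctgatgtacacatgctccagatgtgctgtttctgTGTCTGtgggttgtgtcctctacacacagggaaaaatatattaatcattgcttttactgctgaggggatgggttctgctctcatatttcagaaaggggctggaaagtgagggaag
Fbln2 (chr6:91212514-91212813, plus strand): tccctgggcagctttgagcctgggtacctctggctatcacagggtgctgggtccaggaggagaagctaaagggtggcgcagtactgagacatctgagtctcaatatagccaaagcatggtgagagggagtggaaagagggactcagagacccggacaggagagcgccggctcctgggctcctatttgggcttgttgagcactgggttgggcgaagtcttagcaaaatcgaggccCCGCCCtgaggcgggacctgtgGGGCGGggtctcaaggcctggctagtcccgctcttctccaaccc
Col23a1 (chr11:51289670-51289969, plus strand): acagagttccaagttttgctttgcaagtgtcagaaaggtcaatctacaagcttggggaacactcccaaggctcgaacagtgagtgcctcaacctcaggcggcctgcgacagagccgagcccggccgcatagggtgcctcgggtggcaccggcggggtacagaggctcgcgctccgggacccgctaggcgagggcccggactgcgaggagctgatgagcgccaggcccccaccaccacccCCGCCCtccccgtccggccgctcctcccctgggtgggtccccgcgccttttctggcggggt
Col4a1 (chr8:11312777-11313076, minus strand): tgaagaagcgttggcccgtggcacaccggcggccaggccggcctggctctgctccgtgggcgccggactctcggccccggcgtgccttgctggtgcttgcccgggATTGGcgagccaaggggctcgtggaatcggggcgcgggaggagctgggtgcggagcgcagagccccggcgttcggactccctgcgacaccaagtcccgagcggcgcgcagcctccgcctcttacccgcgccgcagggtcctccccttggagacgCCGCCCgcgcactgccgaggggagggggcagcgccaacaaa
Col4a2 (chr8:11312555-11312854, plus strand): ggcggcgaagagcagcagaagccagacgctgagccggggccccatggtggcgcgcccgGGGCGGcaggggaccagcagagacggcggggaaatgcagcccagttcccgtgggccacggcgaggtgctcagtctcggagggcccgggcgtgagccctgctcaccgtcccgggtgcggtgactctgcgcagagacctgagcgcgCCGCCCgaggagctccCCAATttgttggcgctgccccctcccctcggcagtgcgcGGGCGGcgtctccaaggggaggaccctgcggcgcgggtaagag

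The Col4a1 and Col4a2 windows share 78 bases, chr8:11312777-11312854, read on opposite strands. CCAAT was present in 3 of the 8 windows, against 37.4% of 32851 windows of the same length in the table. GGGCGG was present in 5 of the 8 (35.7% of all windows), CAGACA in 3 (21.0%), TATAAA in 1 (13.6%) and the CArG box, the motif bound by serum response factor, in 0 (1.63%). The TATAAA match lay 117 bases before the start of Col3a1, whose window had the lowest share of G and C of the 8, 37.7%. That of Col4a1 had the highest, 74.0%, and the median over all windows was 52.7%. These matches describe the letters of the windows.

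Values are the authors' RMA values, read as log2, in which a difference of 1 is a 2-fold change. Differences carry the standard error of a limma fit over the 12 arrays, with 1 mean per group and 3 arrays in each, and a gene was called at a Benjamini-Hochberg adjusted p under 0.05 over all 18193 genes. Where a gene had several probe sets, the one with the highest mean over the 12 arrays represents it. The median of all non-control probe sets was 5.08. A probe set's brightness depends on its probes, so levels of different probe sets do not rank genes by abundance. They served to choose the representative and to describe probe sets as bright or dim beside the table median.

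Col1a1, the gene of the type I collagen chain alpha 1, was higher in Gnaq/Gna11 cells than in all other groups. Its values in replicates 1, 2 and 3 were 8.39, 8.22 and 7.81 in Gnaq/Gna11 cells, 5.68, 5.58 and 6.42 in Gna12/Gna13 cells, 6.49, 6.04 and 6.60 in Gna12 cells, and 6.76, 6.57 and 6.37 in Gna11 cells. The lowest Gnaq/Gna11 array lay above all 9 other arrays, and the arrays of the other 3 groups overlapped. Against Gna11 cells Col1a1 rose by 1.57 ± 0.262 (SE, 2.98-fold, limma adjusted p = 0.0164), and against Gna12/Gna13 cells by 2.25 ± 0.262 (4.74-fold, adjusted p = 0.00138). Its second probe set behaved alike, at 6.21 ± 0.242 in Gnaq/Gna11 cells and 4.70 ± 0.197 in Gna11 cells (SD, n = 3), a rise of 1.51 ± 0.201 (limma adjusted p = 0.0117 over 45037 probe sets). Without Gnaq/Gna11 replicate 2 the rise against Gna11 cells was 1.53 and not called (limma adjusted p = 0.0611).

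Col1a2, the gene of the partner chain alpha 2 of type I collagen, was also highest in Gnaq/Gna11 cells, with a wide spread elsewhere. It read 9.91, 9.89 and 9.47 in Gnaq/Gna11 cells, 5.35, 7.18 and 8.67 in Gna12/Gna13 cells, 7.39, 6.97 and 8.32 in Gna12 cells, and 8.16, 6.77 and 8.12 in Gna11 cells. Every Gnaq/Gna11 array lay above the other 9, while the 3 Gna12/Gna13 arrays differed among themselves by more than any other gene of the 10 in any group. The difference of 2.07 ± 0.698 (SE) from Gna11 cells did not pass (limma adjusted p = 0.173). The rise of 2.69 ± 0.698 against Gna12/Gna13 cells passed narrowly (limma adjusted p = 0.0462) and was called in 2 of 12 fits that left out 1 array, those without Gna12/Gna13 replicate 3 or Gna11 replicate 2. The other probe sets of Col1a2 stayed under the table median on all 12 arrays, where values carry little information.

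Col3a1, which encodes type III collagen, the partner of type I collagen in many fibrils, showed the same order. Its values were 7.69, 6.52 and 7.10 in Gnaq/Gna11 cells, 4.30, 4.86 and 5.37 in Gna12/Gna13 cells, 4.79, 4.93 and 5.23 in Gna12 cells, and 5.48, 4.86 and 4.69 in Gna11 cells. Every Gnaq/Gna11 array lay above the other 9, which overlapped around or under the table median. Col3a1 rose by 2.10 ± 0.335 against Gna11 cells (SE, limma adjusted p = 0.0152) and by 2.26 ± 0.335 against Gna12/Gna13 cells (limma adjusted p = 0.00404). The first of these was not called without Gnaq/Gna11 replicate 3 (2.10, limma adjusted p = 0.0516). The second Col3a1 probe set lay between 2.81 and 3.07 on all arrays.

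**Figure D1:**
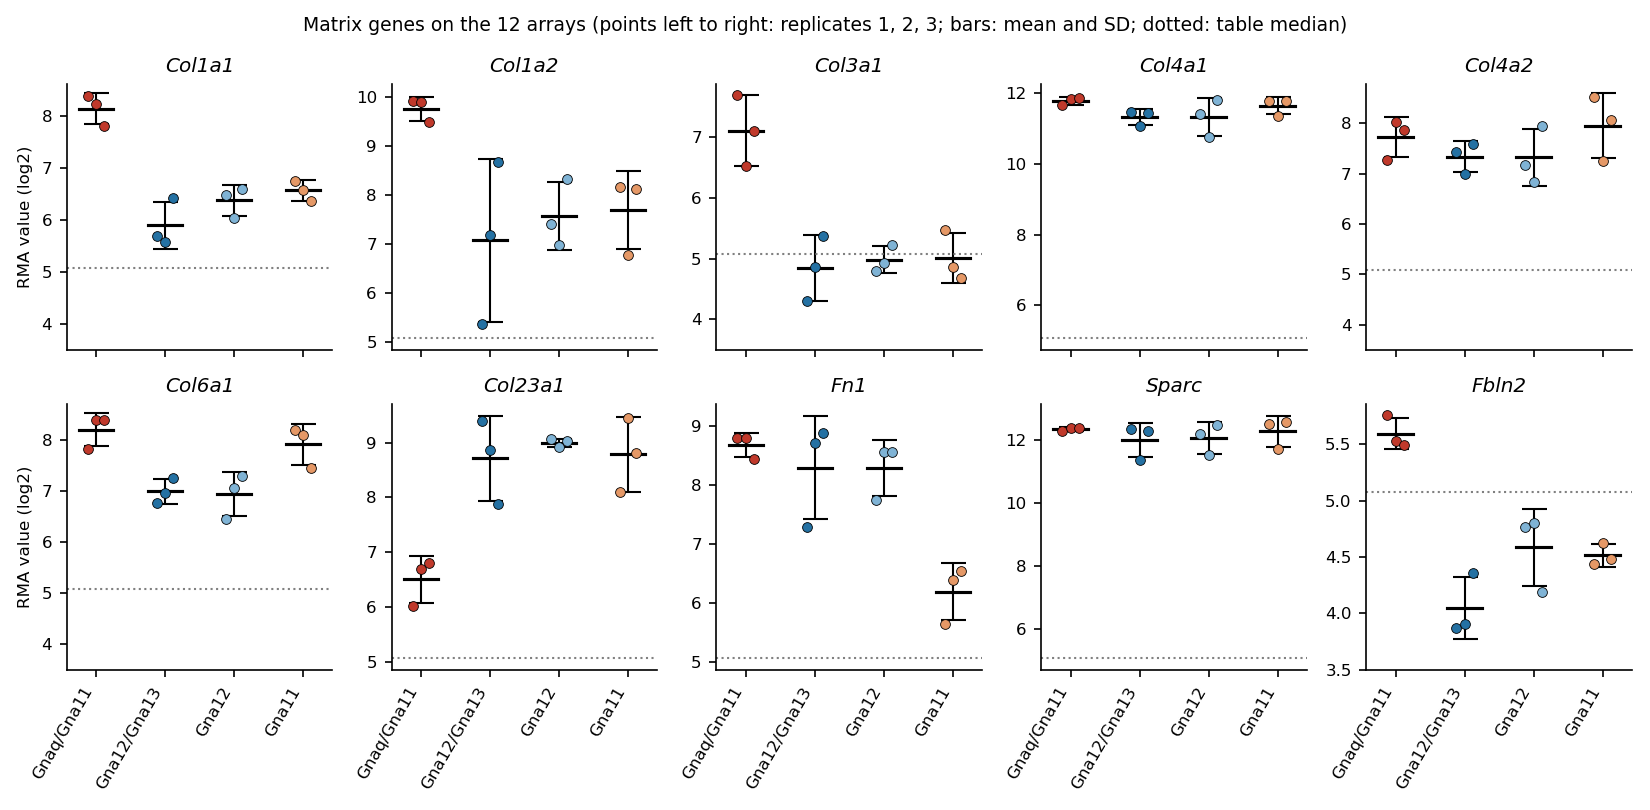
RMA values (log2, vertical axes, which differ between panels) of the representative probe set of each of the 10 genes on the 12 arrays, by genotype group, with the group mean and SD as bars and the table median of 5.08 as a dotted line. The Gnaq/Gna11 points stand above all others for Col1a1, Col1a2, Col3a1 and Fbln2 and below all others for Col23a1, and for Fn1 the Gna11 points stand below the rest.

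Col4a1 and Col4a2 encode the chains alpha 1 and alpha 2 of type IV collagen and are neighbours on chromosome 8. Col4a1 read 11.66, 11.84 and 11.87 in Gnaq/Gna11 cells, 11.46, 11.06 and 11.45 in Gna12/Gna13 cells, 11.41, 10.75 and 11.80 in Gna12 cells, and 11.77, 11.36 and 11.79 in Gna11 cells. For Col4a2 the values were 7.27, 8.03 and 7.87 in Gnaq/Gna11 cells, 7.44, 7.00 and 7.58 in Gna12/Gna13 cells, 7.18, 6.84 and 7.94 in Gna12 cells, and 8.53, 7.26 and 8.07 in Gna11 cells. Neither gene was called in any comparison, and between neighbours in the order of group means the arrays overlapped for both genes. The differences between Gnaq/Gna11 and Gna11 cells were 0.15 (95% interval -0.35 to 0.65) for Col4a1 and -0.23 (95% interval -1.04 to 0.59) for Col4a2. The second Col4a1 probe set differed by 0.64 ± 0.321 (SE, limma adjusted p = 0.421), with groups that did not overlap. Over the 12 arrays the pair had a Pearson r of 0.838, and in all 3 groups other than Gnaq/Gna11, replicate 2 was the lowest array for both.

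Sparc, a secreted glycoprotein that binds collagen, had a similar profile. Its values were 12.29, 12.39 and 12.40 in Gnaq/Gna11 cells, 12.35, 11.37 and 12.30 in Gna12/Gna13 cells, 12.19, 11.52 and 12.50 in Gna12 cells, and 12.54, 11.73 and 12.59 in Gna11 cells. Replicate 2 was again the lowest array of those 3 groups, and the group means did not order the arrays. The difference between Gnaq/Gna11 and Gna11 cells was 0.07 ± 0.310 (SE, 95% interval -0.61 to 0.75, limma adjusted p = 0.935). Eif2s3y, a gene of the Y chromosome, read 3.54, 3.32 and 3.44 in Gnaq/Gna11 cells. Elsewhere it was at most 3.56 in replicate 2 and at least 6.91 in replicates 1 and 3 of all 3 groups, so that within these groups the low Sparc arrays are those with low Eif2s3y. All Gnaq/Gna11 arrays had low Eif2s3y without low Sparc. Low Eif2s3y was thus shared by all Gnaq/Gna11 arrays but only by replicate 2 of the other groups, so it was unbalanced against genotype in comparisons with Gnaq/Gna11 cells. With Eif2s3y as a covariate the Sparc difference was 0.63 ± 0.0731 and passed (limma adjusted p = 0.00923), and against Gna12/Gna13 cells it was 0.91 ± 0.0734 (adjusted p = 0.000532). In that fit Col4a1 was also called against Gna12/Gna13 cells, at 0.83 ± 0.139 (limma adjusted p = 0.00826), against 0.47 ± 0.226 without the covariate. The same fit took away the calls of Fbln2 in Gnaq/Gna11 against Gna11 cells and of Col6a1 in Gnaq/Gna11 against Gna12/Gna13 cells, given below. Over the 12 arrays Sparc had a Pearson r of 0.887 with Col4a1 and 0.813 with Col4a2, as a description of arrays that include these low replicates.

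Col6a1, a chain of the beaded filament collagen VI, split the arrays another way. It read 7.83, 8.40 and 8.39 in Gnaq/Gna11 cells, 6.77, 6.96 and 7.26 in Gna12/Gna13 cells, 6.46, 7.06 and 7.30 in Gna12 cells, and 8.19, 8.09 and 7.46 in Gna11 cells. All 6 arrays lacking Gna11 lay above all 6 arrays lacking Gna12. Col6a1 rose by 1.21 ± 0.285 in Gnaq/Gna11 against Gna12/Gna13 cells (SE, limma adjusted p = 0.0325), while the difference of -0.98 ± 0.285 between Gna12 and Gna11 cells did not pass (limma adjusted p = 0.0875). The first was not called when Gnaq/Gna11 replicate 2 or 3 or Gna12/Gna13 replicate 1 or 2 was left out (adjusted p = 0.104 to 0.107), and the second passed without Gna11 replicate 3 (-1.21, adjusted p = 0.0495). With Eif2s3y as a covariate the first was 1.15 and not called (limma adjusted p = 0.0731). A position code in the labels carries one number for all arrays lacking Gna11 and another for all lacking Gna12, so the code and the genotype cannot be told apart in these 2 comparisons.

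Col23a1 encodes a transmembrane collagen and ran opposite to the fibrillar collagens. Its values were 6.02, 6.70 and 6.79 in Gnaq/Gna11 cells, 9.39, 8.87 and 7.88 in Gna12/Gna13 cells, 9.06, 8.91 and 9.02 in Gna12 cells, and 8.09, 9.45 and 8.81 in Gna11 cells. The highest Gnaq/Gna11 array lay below all 9 others, and the other 3 groups overlapped. Col23a1 fell by 2.28 on the log2 scale against Gna11 cells (SE 0.408, 4.87-fold lower, limma adjusted p = 0.0219) and by 2.21 against Gna12/Gna13 cells (SE 0.408, limma adjusted p = 0.0112). The first was not called without any 1 of the 3 Gnaq/Gna11 arrays or Gna11 replicate 2 (limma adjusted p = 0.0569 to 0.0630), nor the second without Gna12/Gna13 replicate 2 (adjusted p = 0.0527). Of its other probe sets, one fell by 2.07 against Gna11 cells (limma adjusted p = 0.0427) and the other differed by -1.15 without passing (adjusted p = 0.0627), and in both every Gnaq/Gna11 array lay below every Gna11 array.

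Fn1, the gene of fibronectin, was low in Gna11 cells alone. It read 8.80, 8.80 and 8.45 in Gnaq/Gna11 cells, 7.29, 8.71 and 8.88 in Gna12/Gna13 cells, 7.74, 8.56 and 8.56 in Gna12 cells, and 5.65, 6.39 and 6.54 in Gna11 cells. The highest Gna11 array lay below all others, and the remaining groups overlapped. Fn1 rose by 2.49 ± 0.411 in Gnaq/Gna11 against Gna11 cells (SE, 5.63-fold, limma adjusted p = 0.0160), and by 2.10 ± 0.411 in Gna12 against Gna11 cells (4.27-fold, limma adjusted p = 0.0285). Between the double knockouts it differed by 0.39 ± 0.411 (95% interval -0.51 to 1.29, limma adjusted p = 0.642). The rise in Gnaq/Gna11 cells was not called without Gnaq/Gna11 replicate 2 or Gna11 replicate 1 (limma adjusted p = 0.0611 and 0.0523), and that in Gna12 cells without Gna12 replicate 2 or 3 or Gna11 replicate 1 or 2 (adjusted p = 0.0549 to 0.116). The second Fn1 probe set stayed under the table median on all arrays.

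Fbln2, which encodes a fibulin of basement membranes and elastic fibres, was near the floor of the informative range outside Gnaq/Gna11 cells. Its values were 5.76, 5.53 and 5.50 in Gnaq/Gna11 cells, 3.87, 3.90 and 4.36 in Gna12/Gna13 cells, 4.76, 4.80 and 4.19 in Gna12 cells, and 4.43, 4.62 and 4.48 in Gna11 cells. Only the 3 Gnaq/Gna11 arrays exceeded the table median. Fbln2 rose by 1.08 ± 0.183 against Gna11 cells (SE, limma adjusted p = 0.0175) and by 1.55 ± 0.183 against Gna12/Gna13 cells (limma adjusted p = 0.00147). The first was not called without any 1 of the 3 Gnaq/Gna11 arrays or Gna11 replicate 1 (limma adjusted p = 0.0507 to 0.0555). With Eif2s3y as a covariate it was 1.02 and not called either (limma adjusted p = 0.0522). In Gna12/Gna13 against Gna12 cells Fbln2 differed by -0.54 ± 0.183, without passing (limma adjusted p = 1.00).

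Compared with Gna11 cells, Gnaq/Gna11 cells had higher Col1a1, Col3a1, Fn1 and Fbln2 and lower Col23a1. For Fn1 it was the Gna11 arrays that stood apart, while Gnaq/Gna11 arrays overlapped those of the remaining groups. Of the 10 genes, 4 rose and 1 fell, against 1.17% and 0.676% of all genes tested, or 1.84% in either direction. Since the 10 were chosen with earlier results known, these shares are background and no test of the set. Among genes of the same kinds outside the 10, limma called 1 of 7 fibrillar and 1 of 14 beaded filament and fibril-associated collagens. It called 0 of 10 basement membrane and network collagens, 0 of 3 transmembrane collagens and 0 of 23 matrix glycoproteins and proteoglycans. The median difference of the 10 genes was 0.69, and that of all genes -0.03. In 6 of the 10 genes the 3 arrays of one group did not overlap those of the other, which held for 19.7% of all genes. At the level of probe sets 7 of 21 were called, against 0.759% of all. The number of the 10 genes called was 3, 1 and 2 without Gnaq/Gna11 replicates 1, 2 and 3, 3 without Gna11 replicate 1 and 3 in a fit of these 6 arrays alone. It was 0 with a leukocyte gene mean or a Gapdh control probe measure as a covariate, both given below. The number of probe sets called ran from 1 to 7 when 1 array was left out, and was 1 without Gnaq/Gna11 replicate 1 or 3 or Gna11 replicate 2, 2 without Gnaq/Gna11 replicate 2 and 4 without Gna11 replicate 1 or 3.

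**Figure D2:**
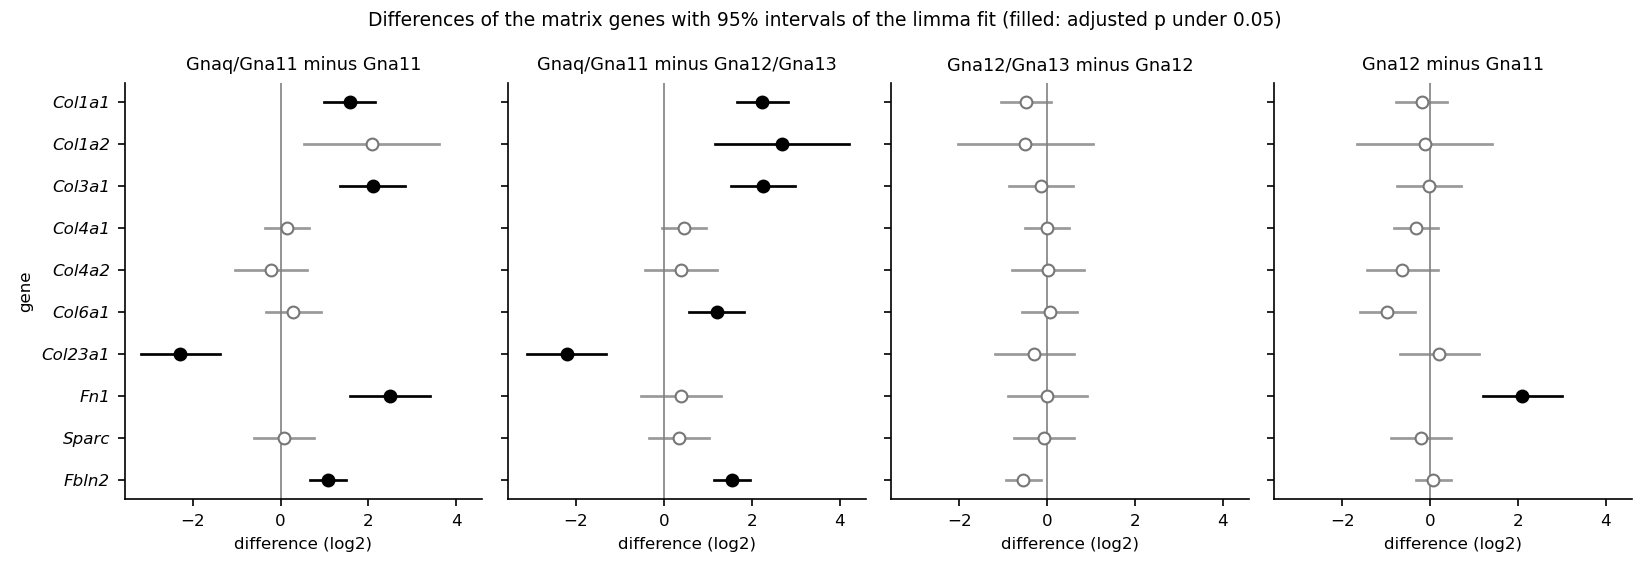
Differences of the 10 genes (log2, horizontal axis) in 4 comparisons, with 95% intervals of the limma fit, filled where the adjusted p was under 0.05. Against Gna11 cells Gnaq/Gna11 cells have 5 filled points, against Gna12/Gna13 cells they have 6, Gna12/Gna13 against Gna12 cells have 0, and Gna12 against Gna11 cells have 1, that of Fn1.

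Loss of Gna13 on top of Gna12 moved none of the 10 genes past the threshold. Limma called 0 of them, and 0% of all genes, while 820 genes and 1 of the 10, Fbln2, had an unadjusted p under 0.05. The differences ran from -0.54 for Fbln2 to 0.06 for Col6a1, with a median of -0.10. The widest interval was that of Col1a2, -2.03 to 1.04, and the narrowest that of Fbln2, -0.94 to -0.14. The groups did not overlap in 0 of the 10 genes, against 11.3% of all genes. Of the probe sets limma called 0 of 21 and 0% of all, with 1 of 21 and 1889 of all 45037 at an unadjusted p under 0.05.

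Whether the 2 double knockouts differed from their single knockouts by unequal amounts was tested directly as a difference between differences. None of the 10 genes passed in limma, where 0.0715% of all genes did. An unadjusted p under 0.05 was found in 6 of the 10 genes and in 1967 of all 18193. The smallest adjusted p-values were those of Fbln2, at 1.62 ± 0.259 (SE, limma adjusted p = 0.0564), Col1a1, at 2.05 ± 0.370 (limma adjusted p = 0.0691) and Col3a1, at 2.23 ± 0.474 (limma adjusted p = 0.106). Without Gna12/Gna13 replicate 3 both Fbln2 and Col1a1 were called, and without Gna12 replicate 3 Fbln2 was called. Of the probe sets 0 of 21 passed, against 0.02% of all, and 10 of 21 had an unadjusted p under 0.05, as did 3880 of all 45037. Without Gna12 replicate 3, 1 probe set passed.

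The double knockouts were also set against each other. In Gnaq/Gna11 against Gna12/Gna13 cells, Col1a1, Col1a2, Col3a1, Col6a1 and Fbln2 rose and Col23a1 fell. These 5 and 1 genes of 10 compare with 2.7% and 3.39% of all genes, or 6.1% in either direction, and 7 of 10 genes had groups that did not overlap, against 28.4% of all genes. The seventh was Col4a1, at 0.47 (limma adjusted p = 0.269). The number called was 3 without Gna12/Gna13 replicate 2, and Col1a1, Col3a1 and Fbln2 were called in all 22 alternative fits. Of the probe sets 7 of 21 passed, against 2.87% of all, and 4 passed without Gna12/Gna13 replicate 1 or 2. This comparison shares the Gnaq/Gna11 arrays with the one against Gna11 cells, so the 2 are not independent.

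Between the single knockouts, Gna12 against Gna11 cells, Fn1 rose and no other gene of the 10 was called. That is 1 of 10 genes higher and 0 lower, against 1.74% and 1.08% of all genes, or 2.82% in either direction, and 2 of 10 genes, Fn1 and Col6a1, had groups that did not overlap, against 26.3% of all genes. The median difference of the 10 genes was -0.16, and that of all genes -0.06. Of the probe sets 1 of 21 passed, against 1.3% of all. The gene count was 0 without Gna12 replicate 2 or 3 or Gna11 replicate 1 or 2, 2 without Gna11 replicate 3, and 0 in a fit of these 6 arrays alone. The probe set count was 0 when any array was left out except Gna12/Gna13 replicate 1 or 3 or Gna11 replicate 3.

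**Figure D3:**
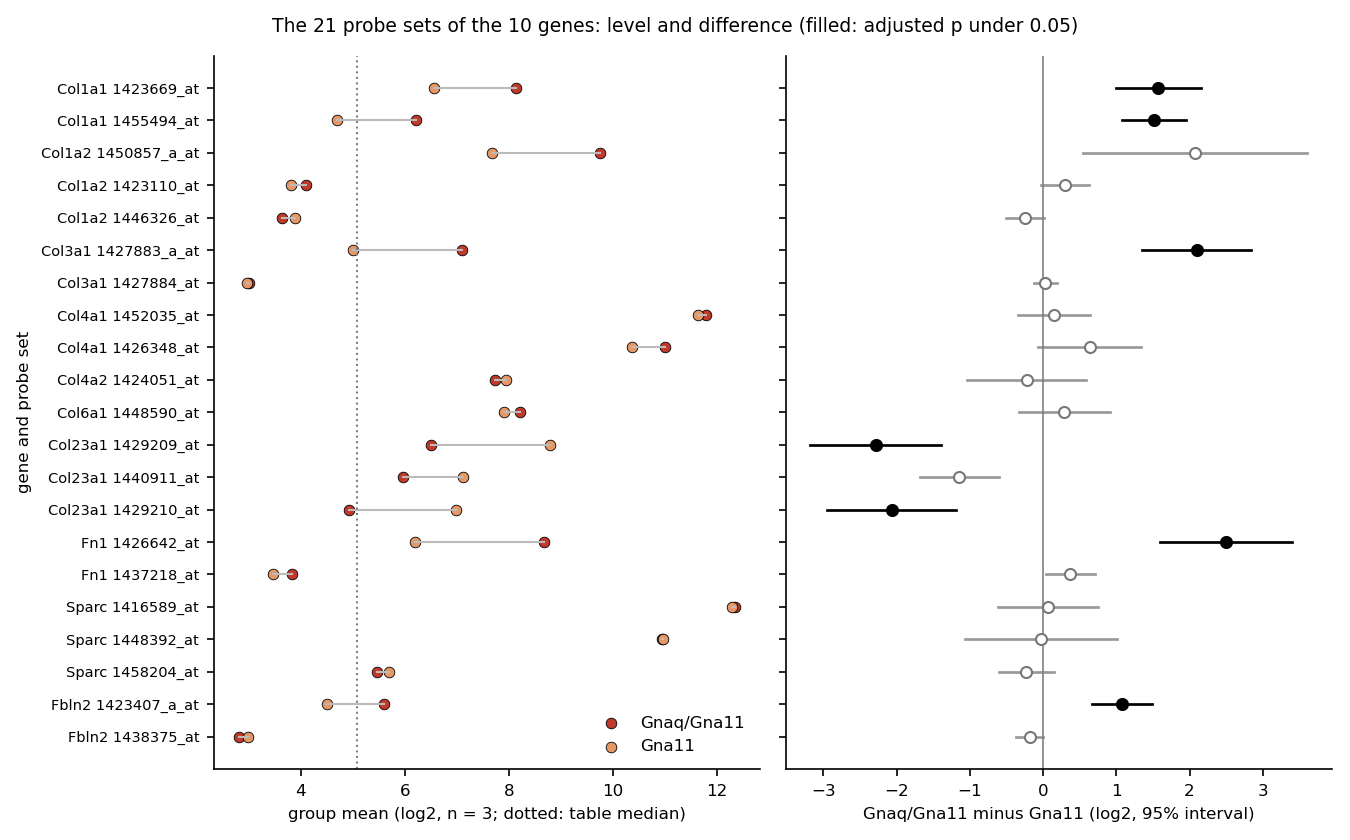
The 21 probe sets of the 10 genes, with the group means of Gnaq/Gna11 and Gna11 cells (log2, left) and their difference with its 95% interval (log2, right, filled where the adjusted p over 45037 probe sets was under 0.05). Both Col1a1 probe sets and all 3 of Col23a1 lie on their own side of 0, and the probe sets that stay left of the dotted table median show small differences.

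Probe sets of one gene gave similar profiles in 4 genes. Over the 12 arrays the Pearson r was 0.969 for the 2 brighter Sparc probe sets, 0.893 for Col4a1, 0.892 for Col1a1 and 0.757 to 0.945 for the 3 Col23a1 probe sets. The third Sparc probe set, which lay above the table median on all arrays, did not follow the other two, with an r of -0.137 and 0.0532. For probe sets under the table median on all arrays, the r with the bright one was 0.520 and -0.247 in Col1a2, 0.465 in Col3a1, 0.540 in Fn1 and 0.0723 in Fbln2. Among the 10 genes themselves, Col1a1 had an r of 0.926 with Col3a1, 0.918 with Fbln2 and 0.868 with Col1a2, and Col23a1 had an r of -0.959 with Col3a1. These values describe 12 arrays that share 4 genotypes and 1 normalisation. For Col1a1, Col1a2, Col3a1, Fbln2 and Col23a1 the same 3 Gnaq/Gna11 arrays stood apart from the other 9, and for Sparc and Col4a1 they did not. How far an r rests on these arrays was not tested.

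The genes whose levels over the 12 arrays were most like those of a matrix gene were sought among 12041 genes with a group mean at or above the table median. For Col1a1 they were Clcn5 (Pearson r = 0.958), Limk1 (0.944), Proz (0.942) and Mbd3 (0.939). For Col23a1 they were Ldhb (0.944), Srf (0.942), Liph (0.936) and Rdh10 (0.929), and for Col4a1 they were Ablim1 (0.959), Esam (0.950), Ehd2 (0.947) and Tmem37 (0.937). Fn1 was most like Ctsd (0.966), Ccl6 (0.959), Dpp7 (0.958) and Tmem198b (0.956). Ctsd encodes a lysosomal protease and Ccl6 a chemokine of myeloid cells, and like Fn1 both had their lowest group mean in Gna11 cells. Ctsd averaged 12.62 in Gnaq/Gna11, 12.56 in Gna12/Gna13, 12.52 in Gna12 and 11.71 in Gna11 cells.

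Other matrix genes were described with lists made for the purpose. In Gnaq/Gna11 against Gna11 cells 3 of 10 fibrillar collagen genes rose, the third being Col5a3, a chain of type V collagen, at 6.22 ± 0.136 in Gnaq/Gna11 and 4.78 ± 0.238 in Gna11 cells (SD, n = 3), a rise of 1.43 ± 0.230 (SE, limma adjusted p = 0.0152). The median of these 10 genes was 0.16. Of 15 measured beaded filament and fibril-associated collagen genes 1 rose, Col6a2, the neighbour of Col6a1, at 10.50 ± 0.215 in Gnaq/Gna11 and 9.05 ± 0.568 in Gna11 cells, by 1.45 ± 0.314 (limma adjusted p = 0.0444), with a list median of -0.09. Of 12 basement membrane and network collagen genes none passed (median -0.15), and the smallest p-values were those of Col8a1 and Col7a1, at -1.01 and 0.74 (limma adjusted p = 0.141 and 0.190). Among 4 transmembrane collagen genes Col23a1 fell and the others did not pass (median -0.21).

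Few genes of the other matrix lists passed in this comparison. Of 26 matrix glycoprotein and proteoglycan genes Fn1 and Fbln2 rose and the other 24 did not pass, with a median of 0.08. Ecm1, at 1.06, and Thbs1, at -0.52, came next (limma adjusted p = 0.114 and 0.203). Of 13 laminin and other basement membrane genes (median -0.09), 23 genes that modify, chaperone or cross-link collagen (median 0.10) and 23 receptor genes for collagen, fibronectin or laminin (median 0.01), limma called 0, and none of these 3 list medians exceeded 0.1 in size beside the -0.03 of all genes. Lama4, a laminin chain, differed by -1.16, the lysyl oxidase homologue Loxl1 by 1.46, and the hyaluronan receptor Cd44 by 1.17 (limma adjusted p = 0.127, 0.243 and 0.0794). In Gna12/Gna13 against Gna12 cells and in the difference between differences, limma called 0 genes of the 8 matrix lists.

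The double knockouts were compared on the same lists, in the comparison where 6.1% of all genes were called, against 1.84% in Gnaq/Gna11 against Gna11 cells. In Gnaq/Gna11 against Gna12/Gna13 cells Col6a2 rose by 1.63 ± 0.314, Col7a1, the anchoring fibril collagen, by 1.12 ± 0.261, and the small proteoglycan gene Fmod by 2.19 ± 0.498 (SE, limma adjusted p = 0.0136, 0.0317 and 0.0278). Col8a1 and Col8a2, the chains of a network collagen, differed by -1.28 ± 0.315 and -0.93 ± 0.246, and the laminin chain gene Lamb1 by -1.54 ± 0.238 (limma adjusted p = 0.0384, 0.0489 and 0.00474). Bmp1, which cleaves the C-terminal propeptide of fibrillar procollagens, rose by 1.19 ± 0.281 (limma adjusted p = 0.0322), and the collagen uptake receptor gene Mrc2 by 1.21 ± 0.321 (limma adjusted p = 0.0497). The integrin gene Itga9 had the widest gap of the receptor list, at 10.95 ± 0.115 in Gnaq/Gna11, 5.97 ± 0.915 in Gna12/Gna13, 6.52 ± 0.168 in Gna12 and 10.74 ± 0.260 in Gna11 cells (SD, n = 3). It differed by 4.98 ± 0.361 between the double knockouts (limma adjusted p = 0.000144) and by -4.21 ± 0.361 in Gna12 against Gna11 cells (limma adjusted p = 0.000609). Cd44 rose by 2.31 ± 0.298 in Gna12 against Gna11 cells (limma adjusted p = 0.00505) and differed by -1.14 ± 0.298 in Gnaq/Gna11 against Gna12/Gna13 cells (adjusted p = 0.0471).

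Markers of the cell types that a culture of lung cells could hold were read beside these results. Of the type II alveolar markers, Sftpa1, Sftpb, Sftpc and Sftpd lay between 11.64 and 13.46 on all arrays, and all 10 measured were above the table median everywhere. Markers of other cell types were bright too, with the type I marker Ager at 13.18 to 13.51 and the macrophage marker Csf1r at 12.01 to 13.15. Above the table median on every array were 7 of 9 type I, 10 of 12 macrophage and 19 of 20 pan-leukocyte markers. These levels therefore do not show that the samples held type II cells alone. Fibroblast identity markers, 16 genes without collagens, had a mean of 5.22 to 5.53 in Gnaq/Gna11, 4.90 to 5.39 in Gna12/Gna13, 5.16 to 5.34 in Gna12 and 5.25 to 5.43 in Gna11 arrays. Among the 16, 3 genes, Thy1, Gli1 and Inmt, were above the table median on every array. Another 6, Tcf21, Twist1, Twist2, Scara5, Meox2 and Wnt2, were under the table median on every array. Also above the table median on every array were 5 of 8 smooth muscle and myofibroblast, 7 of 10 endothelial and 3 of 6 mesothelial markers. Pdgfra, a receptor that defines many lung fibroblasts, lay between 4.42 and 5.10 on all arrays, Pdgfrb between 4.67 and 8.10, and Thy1 between 7.61 and 9.84. In Gnaq/Gna11 against Gna11 cells limma called 0 of the 16 (median 0.00), and against Gna12/Gna13 cells Dpt alone rose, by 2.06 ± 0.499 (SE, limma adjusted p = 0.0362). Of 8 smooth muscle and myofibroblast markers limma called 0 against Gna11 cells (median 0.04). Actg2 and Lmod1 rose against Gna12/Gna13 cells, by 0.62 and 0.81. Actg2 did not reach the table median on any array, which limits the weight of its rise, whereas Lmod1 exceeded that median throughout. Of 10 endothelial, 6 mesothelial, 9 type I alveolar and 9 general epithelial markers limma called 0 against Gna11 cells. The medians of these lists were -0.33, 0.02, -0.29 and -0.09 in that order. Lower were 9 of 10 endothelial, 3 of 6 mesothelial, 8 of 9 type I and 9 of 9 epithelial genes. The endothelial median against Gna12/Gna13 cells was -0.72, with 7 of 10 genes lower and 0 called. Against Gna12/Gna13 cells 5 of the 10 type II markers rose and 2 of the 9 epithelial markers, Cdh1 and Krt19, fell. These are bulk samples, in which fewer cells of a type and less RNA per cell cannot be told apart.

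**Figure D4:**
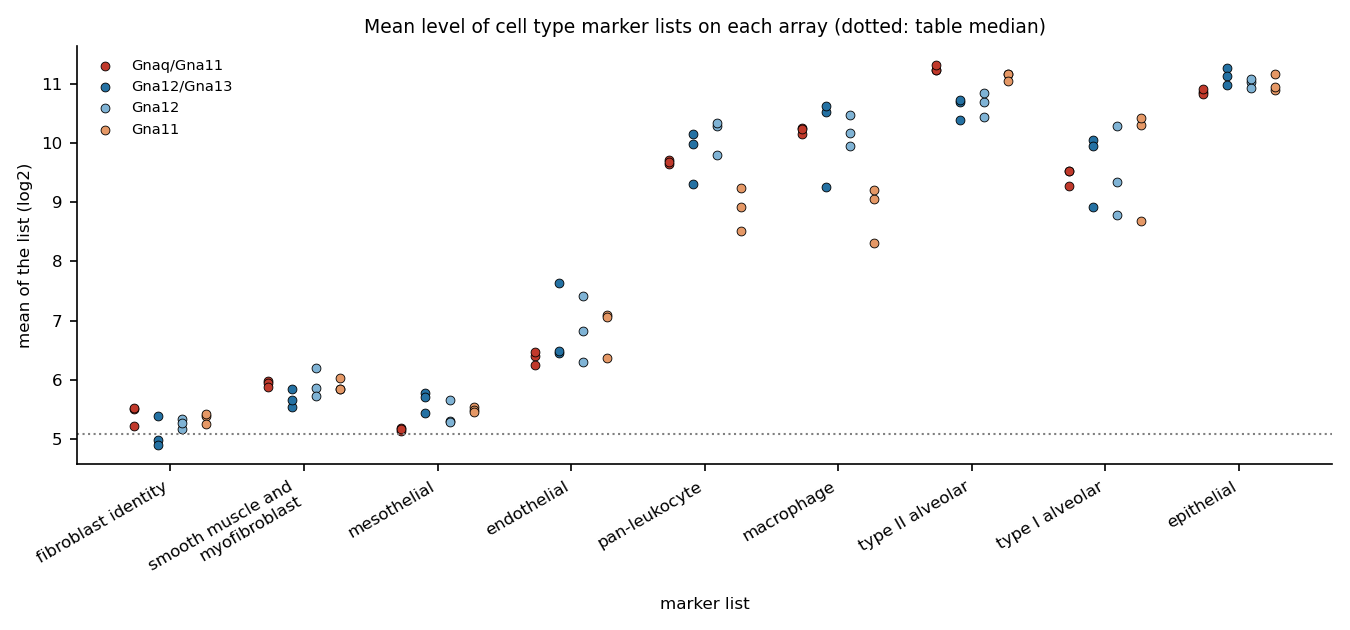
Mean level (log2, vertical axis) of 9 lists of cell type markers on each of the 12 arrays, coloured by genotype group, with the table median as a dotted line. The fibroblast means overlap between Gnaq/Gna11 and Gna11 arrays, the mesothelial means are lowest in the Gnaq/Gna11 arrays, and the pan-leukocyte and macrophage means are lowest in the Gna11 arrays or, in 1 Gna12/Gna13 array, close to them.

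Of the marker list means, the mesothelial, type II, pan-leukocyte and macrophage ones did not overlap between Gnaq/Gna11 and Gna11 arrays. The mesothelial mean was 5.13 to 5.19 in Gnaq/Gna11, 5.43 to 5.77 in Gna12/Gna13, 5.28 to 5.66 in Gna12 and 5.45 to 5.54 in Gna11 arrays, and was lower in Gnaq/Gna11 arrays than in the other 9. This drop was not shared by the list, since 3 of its 6 genes were higher and 3 lower in Gnaq/Gna11 than in Gna11 cells (median 0.02). The type II mean was 11.23 to 11.32 in Gnaq/Gna11, 10.38 to 10.72 in Gna12/Gna13, 10.43 to 10.85 in Gna12 and 11.04 to 11.16 in Gna11 arrays. The type II mean was higher in all arrays lacking Gna11 than in all arrays lacking Gna12, and the mesothelial mean was lowest where Col1a1, Col3a1 and Fbln2 were highest. The part of either mean in the differences of the matrix genes was not tested. The mean of 20 pan-leukocyte genes was 9.65 to 9.70 in Gnaq/Gna11, 9.31 to 10.15 in Gna12/Gna13, 9.80 to 10.33 in Gna12 and 8.51 to 9.24 in Gna11 arrays. The mean of 12 macrophage genes was 10.14 to 10.24, 9.26 to 10.63, 9.94 to 10.47 and 8.31 to 9.20 in the same groups in the same order. Gna11 cells, the group with low Fn1, had the lowest group mean of both lists. Within groups the lowest array of the pan-leukocyte mean was also the lowest of Fn1 in Gna12/Gna13 cells (replicate 1), and not in Gnaq/Gna11, Gna12 or Gna11 cells. In Gnaq/Gna11 against Gna11 cells Itgb2 rose among the 20 pan-leukocyte genes (median 0.72) and Adgre1, Cd68, C1qb and C1qc among the 12 macrophage genes (median 1.33). In Gna12 against Gna11 cells 8 of the 20 and 2 of the 12 rose (medians 1.33 and 1.61).

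When the fit took the pan-leukocyte mean as covariate, the 5 genes called in Gnaq/Gna11 against Gna11 cells no longer passed. Their differences in that fit were 1.54 for Col1a1, 1.85 for Col3a1, -1.48 for Col23a1, 1.86 for Fn1 and 0.79 for Fbln2 (limma adjusted p = 0.333 to 0.511), and 12 genes of the whole table were called in place of 335. Fn1 differed by 1.09 ± 0.751 (SE) in Gna12 against Gna11 cells in that fit, against 2.10 ± 0.411 without the covariate. The gap between the 3′ and 5′ control probe sets for Gapdh, a measure of how far amplified RNA is shortened, was 3.01 to 3.26 in Gnaq/Gna11, 2.99 to 3.33 in Gna12/Gna13, 2.67 to 3.25 in Gna12 and 3.46 to 4.03 in Gna11 arrays. With it as a covariate the same 5 differences were 1.89, 2.15, -2.33, 1.71 and 0.78 in the order above, and none passed (limma adjusted p = 0.114 to 0.290). In that fit 3 genes of the whole table were called. Both measures separate the Gna11 arrays from the Gnaq/Gna11 arrays, as does the letter of the position code in the labels, and neither overlaps between these 2 groups. These measures and the genotype cannot be told apart here.

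**Figure D5:**
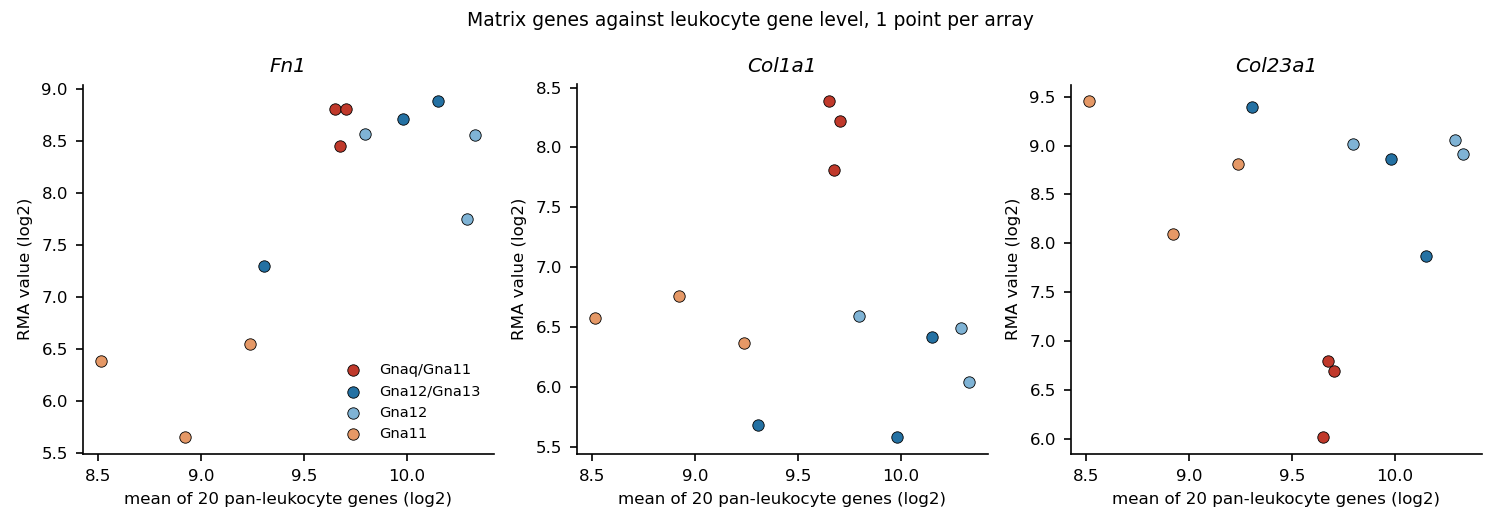
RMA values (log2, vertical axes) of Fn1, Col1a1 and Col23a1 against the mean of 20 pan-leukocyte genes (log2, horizontal axes), 1 point per array, coloured by genotype group. For Fn1 the Gna11 arrays are low on both axes, while for Col1a1 and Col23a1 the Gnaq/Gna11 arrays stand apart from arrays with a lower and with a higher leukocyte mean.

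The order of group means differed between the genes. Col1a1, Col1a2 and Col3a1 all ran from Gnaq/Gna11 through Gna11 and Gna12 to Gna12/Gna13, and only the step after Gnaq/Gna11 separated the arrays. Fn1 ran from Gnaq/Gna11 through Gna12/Gna13 and Gna12 to Gna11, and only the last step did. Fbln2 had 2 such steps, of 1.01 between Gnaq/Gna11 and Gna12 cells and of 0.47 between Gna11 and Gna12/Gna13 cells, and Col6a1 had 1, of 0.92 between Gna11 and Gna12/Gna13 cells. For Col4a1, Col4a2 and Sparc all neighbouring groups overlapped.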

How the data were processed

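Expression was measured on Affymetrix mouse genome arrays, 3 per genotype group, from 10 ng of total RNA per sample, per the labels. The deposited table holds log2 expression values, for which the submitters' processing notes name RMA. The log base is not stated and was taken as 2, as RMA gives. Software version and annotation: not given in the sources used here. Array medians lay between 5.03 and 5.11, the number of arrays limits the precision, and no 2 arrays were identical.

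Of 45101 probe sets, 64 controls were left out of all tests. Of the rest, 34945 had 1 gene symbol, 932 several and 9160 none, and 34741 were matched by gene number to RefSeq symbols (GRCm38.p6). The probe set with the highest mean stood for each gene, which gave 18193 genes. Limma 3.58.1 in R 4.3.3 (lmFit, eBayes with trend, 8 residual and 3.19 prior degrees of freedom) was fitted over the 12 arrays, with two-sided tests and Benjamini-Hochberg adjustment. The fit was tested on simulated data.

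The 10 genes, the lists and the tests were chosen with earlier results of these data known. Named are all 10 genes, per matrix list up to 4 called genes with the largest differences or else the 2 with the smallest p, the first 4 genes of a marker list, and the 4 genes most like Col1a1, Fn1, Col4a1 and Col23a1. Symbols of marker genes called in a count of 5 or fewer were added after their values were seen. Alternatives were the probe set mean, no trend, a filter on dim genes, the compared arrays alone, array weights, quantile normalization, a replicate block, 3 covariates and each array left out.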

Additional observations from a re-analysis of the deposited data

How the results depend on the processing

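Over the alternatives, no called difference of the 10 genes changed its sign. Of 264 values of the 12 called differences, 213 kept direction and call and 51 kept direction but lost the call, and of 826 values of the 38 others, 12 passed. Leaving out each array in turn gave 1 to 5 of the 10 genes called in Gnaq/Gna11 against Gna11 cells (1 to 7 probe sets), 0 to 2 in Gna12 against Gna11 cells (0 to 1 probe sets), 3 to 6 in Gnaq/Gna11 against Gna12/Gna13 cells (4 to 7 probe sets) and 0 to 2 in the difference between differences (0 to 1 probe sets). With the pan-leukocyte mean or the Gapdh difference as a covariate 0 genes were called against Gna11 cells, both in Gnaq/Gna11 and in Gna12 cells, and with only the arrays compared 3 and 0 were. In the difference between differences 1 gene passed after averaging each gene's probe sets, with array quality weights or with Eif2s3y as a covariate, and 2 passed when dimmer genes were filtered out. Gna12/Gna13 against Gna12 cells gave 0 in every fit. The causes were not tested.

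The deviations of same-numbered arrays had r between -0.04 and 0.27 over 18 pairs. The 6 pairs above 0.1 were those of replicates 2 and 3 among Gna12/Gna13, Gna12 and Gna11 cells, and no pair of replicate 1 or with Gnaq/Gna11 cells was. The main fit did not take the numbers as pairs because the labels do not say what they mark. With the number as a replicate block 4 probe sets were called in Gnaq/Gna11 against Gna11 cells in place of 7, and 5, 0, 0, 1 and 6 genes in the 5 comparisons, as without it. Of the 6 arrays of Gnaq/Gna11 and Gna11 cells 5 correlated best with their own number, as did 4 of 6 in each other pair of groups compared. Values under the table median carry little information, which limits Fbln2 and Col3a1 outside Gnaq/Gna11 cells.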
